A study of Mus musculus with 6 samples.

Results

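The keratin genes of mouse olfactory epithelium were followed across 6 dissections, each read on its own expression array. A gene was taken as a keratin when a probe set carried exactly 1 symbol in the platform annotation and that symbol was Krt followed by a digit, which leaves out the keratin-associated Krtap and Krtcap genes. This gave 61 probe sets of 48 genes, among 18193 named genes in all, and the probe set with the highest mean represented its gene. Of the 48 keratins, 28 lay above a filter on dim genes (a mean of 5.19 on the log2 scale) and 20 lay below it. The study compared 3 wildtype with 3 mutant pups aged 1 day, all of a mixed C57Black6/J and 129SvJ background. Its title names targets of the transcription factor KLF7 in olfactory sensory neurons as the question, and the sources used here do not name the mutant allele.

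Keratins are the intermediate filament proteins of epithelial cells. A type I and a type II keratin must pair to form a filament, and the pair a cell uses follows its kind and its state. Basal cells of stratified epithelia use Krt5 with Krt14, and Krt15 joins them. Suprabasal cells of epidermis change to Krt1 with Krt10, those of lining mucosa to Krt4 with Krt13, and Krt6a, Krt6b, Krt16 and Krt17 appear in skin appendages and in stressed or activated keratinocytes. Simple, single-layered and glandular epithelia use Krt8 with Krt18, often with Krt7 or Krt19. In the olfactory epithelium, horizontal basal cells carry Krt5 and Krt14, while supporting cells and Bowman gland cells carry Krt8 and Krt18; cornifying keratins belong to the squamous lining of the nasal vestibule and to skin.

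All values below are quantile-normalized intensities on the log2 scale, raised to a floor of 3.65. A range or a difference between single arrays that involves the floor is therefore understated. A difference of group means that involves the floor can be too small or too large. In whole tissue, fewer cells of a type and less RNA per cell cannot be told apart. The medians of the deposited intensities ran from 38.21 to 61.59 over the arrays. Klf7 read 9.36 ± 0.57 in wildtype and 7.21 ± 0.93 in mutant (SD, n = 3 each). The olfactory markers Gnal and Stoml3 were present on every array, at lower levels in mutant. Gnal ran from 10.21 to 10.36 in wildtype and from 9.10 to 9.48 in mutant. Stoml3 ran from 10.44 to 10.66 in wildtype and from 9.50 to 9.85 in mutant. Omp, the marker of mature olfactory neurons, ran from 7.40 to 8.81 over all arrays. Of all genes tested, 18.9% had both arrays numbered 3, wildtype 3 and mutant 3, as their highest arrays.

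Most keratins of stratified epithelium and several hair keratins differed widely from array to array within each genotype, whereas the simple keratins Krt8, Krt18 and Krt23 ranged by at most 1.64-fold over the 6 arrays. Over the 28 keratins the median range across the 6 arrays was 3.03 on the log2 scale, against 1.41 over all genes tested. The spread within genotypes lay above the 95th percentile of all genes for 9 of the 28 keratins (5.01% of all genes). These were the stratified keratins Krt1, Krt4, Krt13 and Krt6a, the hair keratins Krt33a, Krt36 and Krt84, and Krt20 and Krt222. The ranking took no account of intensity. These 9 had means from 5.28 to 7.11, and all but Krt1 lay at the floor on 1 or 2 arrays. Krt23, Krt8 and Krt18 had means from 9.39 to 11.57, and the basal keratins from 8.63 to 9.64. How far intensity sets the spread was not tested. The median range was 2.48 in the basal class and 3.05 in the hair class, so wide ranges were not confined to stratified keratins. For 14 of the 28, the 3 highest arrays were wildtype 2, mutant 1 and mutant 3, an order found in 8.83% of all genes. The order was chosen after these keratins' values were seen, so its count describes them and is no test. These 14 were all 3 basal keratins, 5 of 6 simple keratins, 2 of 4 cornified keratins, both mucosal keratins and both keratins of stress and appendages. With arrays scaled to equal medians in place of quantile normalization the count was 8: the 5 simple keratins and Krt15 left the order and the other stratified keratins kept it. The share of all genes with the order was not counted under that scaling.

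**Figure D1:**
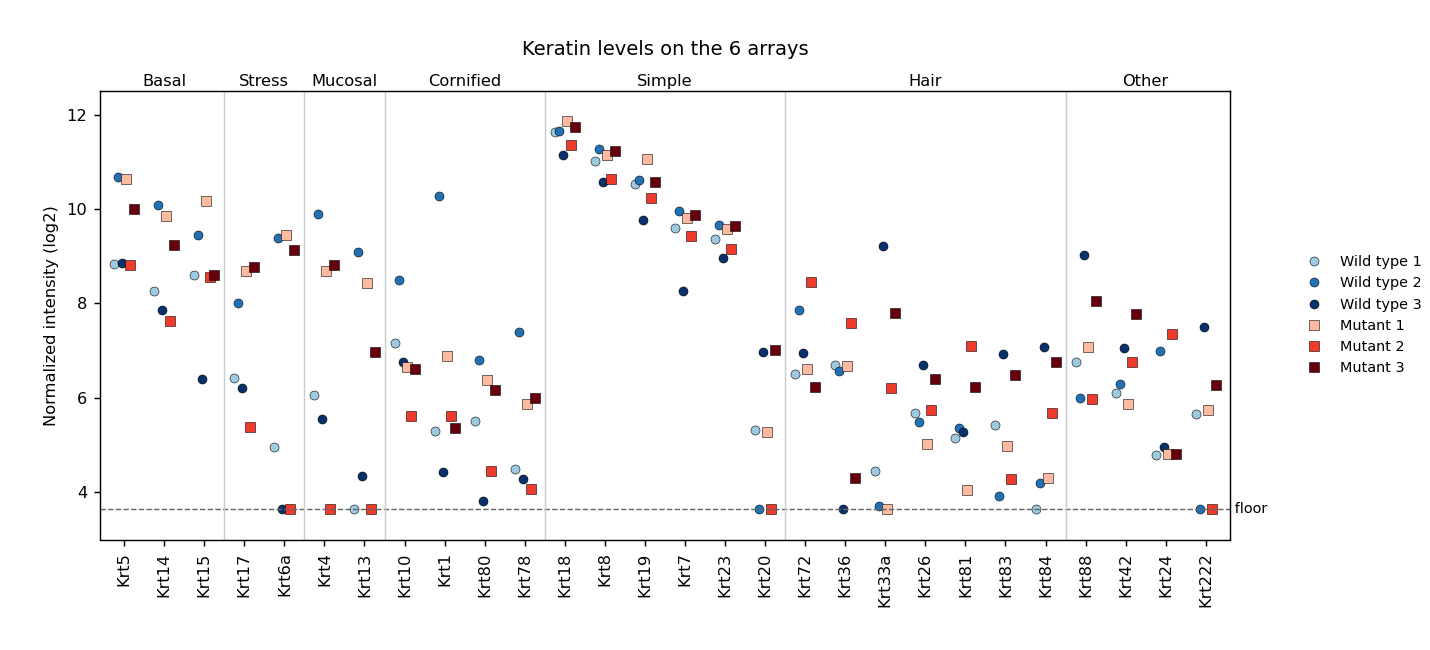
Normalized intensity (log2) of each of the 28 keratins above the dim filter on each array, with circles for wildtype, squares for mutant and a dashed line at the floor of 3.65. Krt8, Krt18, Krt19 and Krt23 sit in narrow bands near the top, while Krt4, Krt1, Krt6a, Krt33a and Krt13 span more than 5 log2 units over the 6 arrays.

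Core promoters are shown for 3 of the variable stratified keratins, Krt5, Krt13 and Krt78, and for the steady pair Krt8 and Krt18. These are the 60 bases before the start from RefSeq (GRCm38.p6), with ATAAA, the core of a TATA-box-like element, in capitals.
Krt5, chr15:101712906-101712965, minus strand: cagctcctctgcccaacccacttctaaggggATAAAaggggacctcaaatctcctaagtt
Krt13, chr11:100121567-100121626, minus strand: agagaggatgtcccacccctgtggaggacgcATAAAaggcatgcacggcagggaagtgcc
Krt78, chr15:101954288-101954347, minus strand: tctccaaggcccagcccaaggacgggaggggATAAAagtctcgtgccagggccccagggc
Krt8, chr15:102004343-102004402, minus strand: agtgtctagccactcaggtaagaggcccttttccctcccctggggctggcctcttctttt
Krt18, chr15:102028156-102028215, plus strand: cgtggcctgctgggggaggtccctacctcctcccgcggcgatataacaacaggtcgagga
In Krt5, Krt13 and Krt78 the motif began 29 bases before the start, and Krt8 and Krt18 did not hold it. Krt13 has a second listed start, which did not hold it. The printed bases of Krt18 do hold tataa close to the start, which a search for ATAAA does not count. Both strands of the 30 bases from -45 to -16 were searched in every RefSeq promoter, with a motif chosen after the sequences were seen. On the gene's own strand 19 of 33 keratin promoters held it (57.6%), against 4.83% of 32851 promoters of all genes, and on the other strand 0 of 33, against 2.72%. The split among the printed promoters did not hold beyond them: the steady Krt23 held the motif, and the listed start of the variable Krt14 did not. Hair keratins gave 11 of the 19, from 16 promoters. The motif was in 2 of 5 simple, 1 of 2 basal, 2 of 4 cornified and 2 of 3 mucosal promoters, and in 1 of 3 others. The 33 promoters belong to 32 of the 48 keratins.

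Basal keratins, found in horizontal basal cells and in the basal layer of stratified epithelia, were high on the same 3 arrays. Which of these cells gave the signal was not tested. Krt5 read 8.83, 10.68 and 8.86 on wildtype arrays 1, 2 and 3 and 10.63, 8.82 and 10.01 on mutant arrays 1, 2 and 3. Its 3 high arrays were thus separated from its 3 low arrays, and each genotype held some of both. Krt14, its filament partner, read 8.26, 10.09 and 7.86 in wildtype and 9.85, 7.62 and 9.23 in mutant, with the same split. Of its 3 probe sets 2 had these arrays highest, and the dimmest had mutant 3 and wildtype 3. Krt15, found in basal cells of quiescent epithelium, read 8.61, 9.44 and 6.39 in wildtype and 10.17, 8.57 and 8.61 in mutant. On Krt15 mutant 3, wildtype 1 and mutant 2 were nearly level, and wildtype 3 stood far below the rest. From lowest to highest array, Krt5 spanned 3.62-fold, Krt14 5.56-fold and Krt15 13.7-fold.

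The keratins of stress and skin appendages were high on the same 3 arrays. Krt6a, a type II keratin of hair follicle companion layer, oral mucosa and wounded epidermis, read 4.95, 9.39 and 3.65 in wildtype and 9.46, 3.65 and 9.13 in mutant. As deposited, its intensities were 24.2, 728 and 9.36 in wildtype and 757, 13.7 and 471 in mutant. On this probe set no array lay in between: 3 arrays read above 9 and 3 below 5. All 3 probe sets of Krt6a had the same 3 arrays highest, but the gap was narrower on the others. It was narrowest where wildtype 1 read 6.02 and mutant 3 read 7.40. Krt17, a type I keratin of hair follicles and activated keratinocytes, read 6.42, 8.01 and 6.20 in wildtype and 8.69, 5.39 and 8.78 in mutant. Its second, dimmer probe set ran from 3.98 to 4.85 and was highest on wildtype 3. Krt6b and Krt16 were below the dim filter. Krt6b was off the floor on only wildtype 2 (7.62), mutant 1 (6.13) and mutant 3 (4.70), while Krt16 exceeded 5 on wildtype 2 alone (6.86). Krt6a and Krt6b are near-identical copies, so their signals may be shared.

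Mucosal keratins followed the same arrays. Krt4, the type II keratin of oral, esophageal and other lining mucosa, read 6.06, 9.89 and 5.56 in wildtype and 8.69, 3.65 and 8.81 in mutant. Krt13, its type I partner, read 3.65, 9.08 and 4.34 in wildtype and 8.44, 3.65 and 6.97 in mutant. Between wildtype 2 and mutant 2, the highest and the lowest array, Krt4 differed by 6.24 and Krt13 by 5.43, both against the floor. The second Krt4 probe set also had wildtype 2, mutant 1 and mutant 3 highest. Of 3 Krt13 probe sets only the brightest did. Another stayed below 5, and the third was highest on mutant 2, at 6.64, where the brightest was at the floor. Krt76, a keratin of hard palate and gingiva, was below the dim filter and was off the floor on wildtype 2 alone (5.94).

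Cornified keratins stood out on wildtype 2. Krt1, the type II keratin of the suprabasal epidermis, read 5.29, 10.28 and 4.42 in wildtype and 6.89, 5.61 and 5.36 in mutant. Wildtype 2 stood far above the next array, mutant 1. Its partner Krt10 read 7.17, 8.50 and 6.77 in wildtype and 6.66, 5.62 and 6.61 in mutant. For Krt10 mutant 1 and mutant 3 were not raised, and the 3 wildtype arrays lay above the 3 mutant arrays, although wildtype 3 and mutant 1 were nearly level. Krt78, a type II keratin of differentiated epidermis and mucosa, read 4.50, 7.39 and 4.29 in wildtype and 5.86, 4.08 and 5.99 in mutant. Krt80, found in the differentiating layers of many epithelia, read 5.51, 6.81 and 3.82 in wildtype and 6.37, 4.45 and 6.17 in mutant. Both were higher on mutant 1 and mutant 3 than on the 3 low arrays, as Krt10 was not. Krt2 and Krt77 of the upper epidermis were below the dim filter, and neither exceeded 5 on any array. Krt9, the keratin of palm and sole skin, had no single-gene probe set.

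Simple keratins ranged less, Krt18, Krt8 and Krt23 least among them. Krt18 read 11.64, 11.66 and 11.15 in wildtype and 11.86, 11.35 and 11.73 in mutant, a range of 1.63-fold. Krt8, its partner in supporting and gland cells, read 11.01, 11.28 and 10.57 in wildtype and 11.15, 10.63 and 11.22 in mutant, a range of 1.64-fold. Of 3 Krt8 probe sets 2 had wildtype 2, mutant 1 and mutant 3 highest. Krt19, a type I keratin of ducts and glands, read 10.54, 10.62 and 9.77 in wildtype and 11.05, 10.24 and 10.58 in mutant, a range of 2.43-fold. Wildtype 3 was the lowest array for all 3 genes, as it was for 28.6% of all genes tested. For Krt8 mutant 2 was close to it, and was the lowest array on the other Krt8 probe sets (10.47 and 10.56). Krt7, a type II keratin of glandular epithelium, read 9.60, 9.96 and 8.26 in wildtype and 9.82, 9.43 and 9.87 in mutant, so that its range of 3.27-fold came mainly from wildtype 3. Krt23, a type I keratin, ran from 8.97 to 9.67. The spread within genotypes ranked at the 15.8th percentile of all genes for Krt18, the 19.3rd for Krt23, the 23.7th for Krt8, the 36.0th for Krt19 and the 59.4th for Krt7. Krt20, a keratin of intestinal epithelium and of Merkel cells, departed from the class: it read 5.32, 3.65 and 6.97 in wildtype and 5.28, 3.65 and 7.01 in mutant, highest on both arrays numbered 3.

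Hair keratins, which build the hair shaft and its inner root sheath, were mostly dim. Of 21 measured, 7 lay above the dim filter, and 0 of these had wildtype 2, mutant 1 and mutant 3 as their highest arrays. Krt33a, a hair shaft keratin, read 4.45, 3.72 and 9.21 in wildtype and 3.65, 6.21 and 7.80 in mutant, and Krt84, Krt83 and Krt26 were likewise highest on wildtype 3 and mutant 3. Krt72, an inner root sheath keratin, ran from 6.23 on mutant 3 to 8.46 on mutant 2. Krt36 and Krt81 were also highest on mutant 2. Among the keratins outside these classes, Krt88, Krt222 and Krt42 had wildtype 3 and mutant 3 as their highest arrays and Krt24 had mutant 2 and wildtype 2. In all, 8 of the 28 keratins had wildtype 3 and mutant 3 highest, beside the 18.9% of all genes. Of the 20 keratins below the dim filter, 17 lay at the floor on at least 1 array, and Krt27 and Krt35 on all 6.

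To contrast the classes on one array without setting one probe set's level against another's, each gene was expressed as its deviation from its own mean over the 6 arrays, and the class median was taken. The basal class stood at -0.56, 1.04 and -0.95 on wildtype arrays 1, 2 and 3 and at 1.03, -0.82 and 0.37 on mutant arrays 1, 2 and 3. The simple class stood at 0.05, 0.21 and -0.42 in wildtype and 0.23, -0.23 and 0.24 in mutant. Basal minus simple was therefore 0.83 on wildtype 2 and 0.80 on mutant 1, but 0.13 on mutant 3, and it was -0.61 on wildtype 1, -0.53 on wildtype 3 and -0.59 on mutant 2. The cornified class stood at -0.43, 1.82 and -1.38 in wildtype and 0.55, -1.17 and 0.18 in mutant. Cornified minus basal was 0.78 on wildtype 2 and -0.48 on mutant 1, so these arrays, alike in basal keratins, differed in cornified ones. On mutant 3 cornified minus basal was -0.19 and cornified minus simple -0.06. Mucosal minus basal was 1.88, 0.97 and 0.95 on wildtype 2, mutant 1 and mutant 3, and -1.15, -0.66 and -2.10 on wildtype 1, wildtype 3 and mutant 2. Stress minus basal was highest on mutant 3, at 1.61, followed by mutant 1 at 1.07 and wildtype 2 at 0.68. The classes hold 2 to 6 genes above the filter, so these medians are descriptions of few genes.

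**Figure D2:**
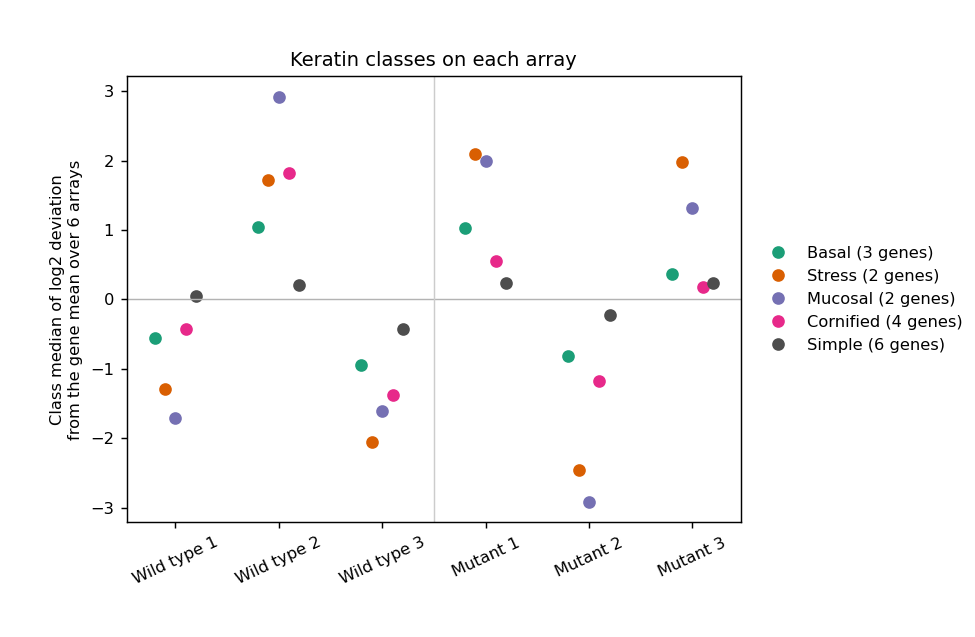
Class median of the log2 deviation from each gene's mean over the 6 arrays, for 5 keratin classes, with 1 point per class and array. Stratified classes lie above 0 on wildtype 2, mutant 1 and mutant 3 and below 0 on the other 3 arrays, while the simple class stays between -0.42 and 0.24.

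The design asks whether keratins differ between mutant and wildtype. Limma called 0 of the 28 keratins over all genes tested (smallest adjusted p = 1), with 0 at an unadjusted p under 0.05; over all genes it called 0% and had 0.598% at an unadjusted p under 0.05. Blocking on the replicate number also left 0 of the 28 called by limma (0% of all genes), with 0 at an unadjusted p under 0.05. The log2 difference, mutant minus wildtype, was positive for 18 keratins and negative for 10, with a median of 0.14 against -0.02 over all genes. The basal keratins differed by 0.36 for Krt5 (SE 0.550), 0.16 for Krt14 (SE 0.655) and 0.97 for Krt15 (SE 0.712). Krt6a differed by 1.42 (SE 1.629), Krt17 by 0.74 (SE 0.881), Krt13 by 0.66 (SE 1.467) and Krt4 by -0.12 (SE 1.397). The difference was smaller on the other Krt6a probe sets, at 0.95 and 0.14. With 1 array left out, Krt6a ran from 0.25 (without wildtype 3) to 3.30 (without mutant 2), Krt17 from 0.16 (without mutant 3) to 1.86 (without mutant 2) and Krt15 from 0.09 (without wildtype 3) to 1.61 (without wildtype 2). Among the 28 keratins, only the difference of Krt10 over all arrays exceeded the larger of the SDs within its groups.

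Krt10 was the only keratin of the 28 whose groups did not overlap, where 2.86% of all genes did not and 1.95% were lower in mutant without overlap. Its mean was 7.48 ± 0.90 over the 3 wildtype arrays and 6.30 ± 0.59 over the 3 mutant arrays (SD). The difference was -1.18 (SE 0.621; limma, unadjusted p = 0.0834, adjusted p = 1). The exact two-sided permutation p was 0.1, the smallest that 3 arrays against 3 can give. With 1 array left out the difference ran from -1.54 (without wildtype 3) to -0.67 (without wildtype 2), and with arrays scaled to equal medians its groups overlapped. Krt1 differed by -0.71 (SE 1.269), and by 1.10 without wildtype 2. The median difference of the 4 cornified keratins moved from -0.40 to 0.96 without that array. The simple keratins other than Krt20 (SE 1.081) gave the narrowest errors. Krt18 differed by 0.16 (SE 0.208), Krt8 by 0.04 (SE 0.248), Krt19 by 0.32 (SE 0.299) and Krt7 by 0.43 (SE 0.418).

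Arrays of the same number gave opposite differences for most stratified keratins. Krt5 was 1.80 higher in mutant for number 1 and 1.15 higher for number 3, and its difference for number 2 was -1.86. For Krt6a the differences were 4.52, -5.74 and 5.48, and for Krt4 2.63, -6.24 and 3.25, for numbers 1, 2 and 3. Both had a mutant-minus-wildtype sign that turned with the number. These signs were found in 15 of the 28 keratins and 23.1% of all genes. A gene highest on wildtype 2, mutant 1 and mutant 3 must have them, so 14 of the 15 restate that count and only Krt1 is added. Krt10 was the exception among stratified keratins, lower in mutant for all 3 numbers by -0.51, -2.87 and -0.16.

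**Figure D3:**
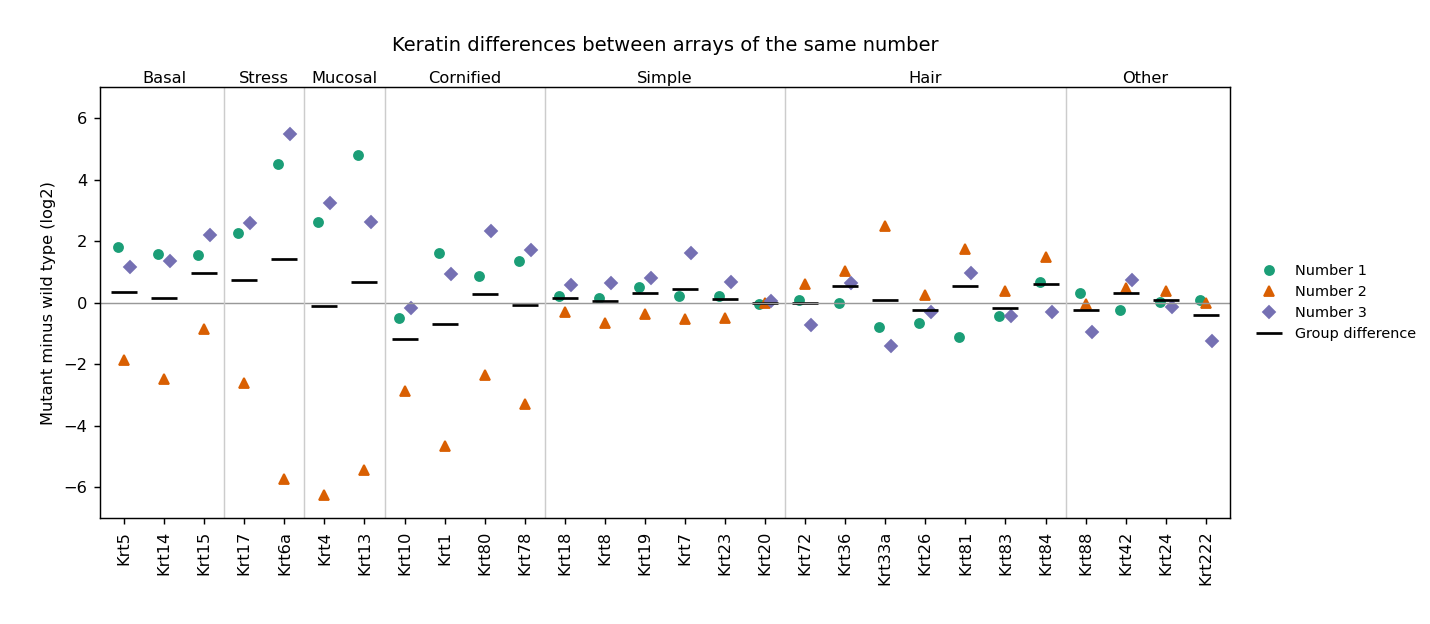
Mutant minus wildtype (log2) for arrays numbered 1, 2 and 3 and the difference of the group means (bars), for the 28 keratins by class. Stratified keratins other than Krt10 lie above 0 for numbers 1 and 3 and below 0 for number 2, and the group differences lie near 0 beside that spread.

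Partner keratins tracked each other to different degrees. The deviations of Krt5 and Krt14 differed by at most 0.38 on any array, and those of Krt8 and Krt18 by at most 0.21. The mucosal partners Krt4 and Krt13 differed by at most 1.32, with an array at the floor for one or both. Krt1 and Krt10 differed by up to 2.36, on wildtype 2, where Krt1 stood further above its own mean than Krt10 did. Thus the epidermal pair was the one whose members were least alike over the arrays among these 4 pairs.

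The rule used names only, so the place of each gene was compared too. Type I keratins lie in one chromosomal cluster, on chromosome 11, and type II keratins in another, on chromosome 15, which also holds the type I gene Krt18. In the RefSeq order, 6 of 14 keratins above the filter in the first and 8 of 14 in the second had wildtype 2, mutant 1 and mutant 3 highest. In the type I cluster these were Krt13, Krt15, Krt19, Krt14 and Krt17, which follow each other among the keratins above the filter, and Krt23 apart from them. In the type II cluster they were, in the same sense, the runs Krt80 and Krt7, Krt6a and Krt5, and Krt4, Krt78, Krt8 and Krt18. The hair keratins Krt33a to Krt36, next to Krt13, did not share the order. Krt1 and Krt4 lie near each other, and mutant 3 was among the high arrays for Krt4 but not for Krt1.

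**Figure D4:**
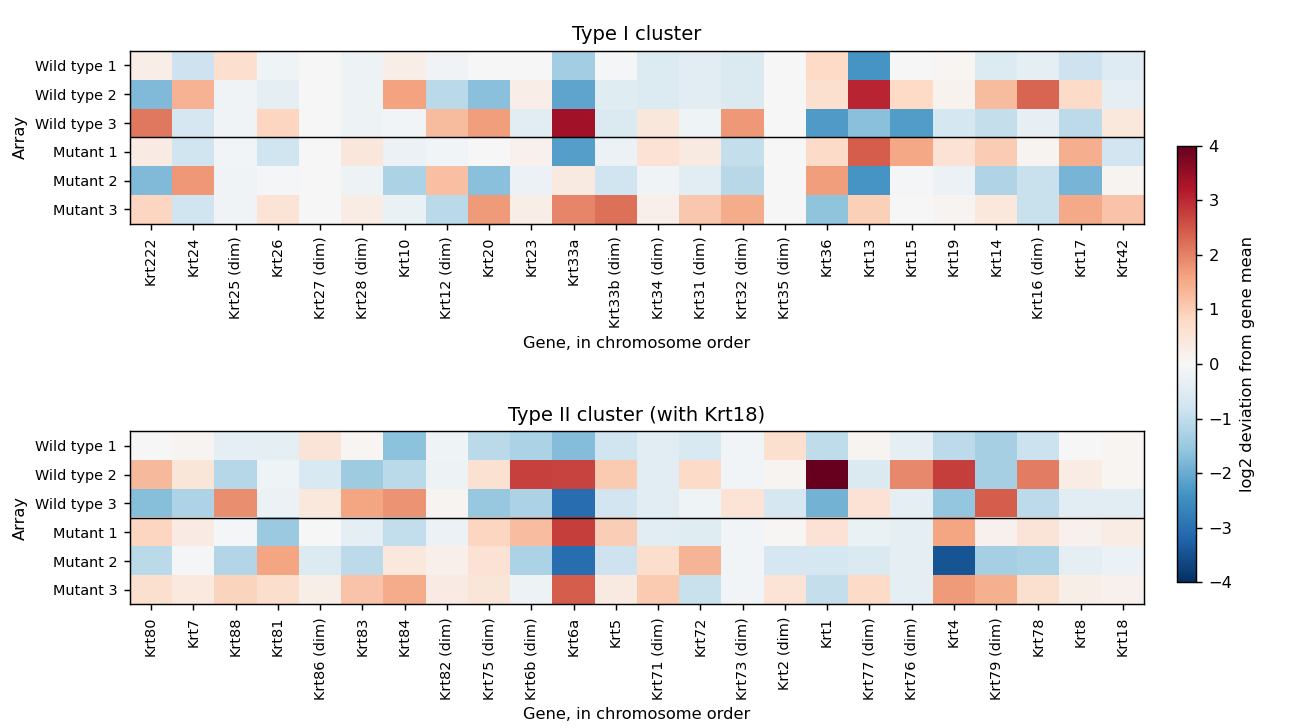
Log2 deviation of each measured keratin from its mean over the 6 arrays (colour), with genes in chromosome order in the type I and type II clusters and arrays in rows; genes below the dim filter are marked dim. Red on wildtype 2, mutant 1 and mutant 3 appears at Krt13, Krt14 and Krt17 in the type I cluster and at Krt6a, Krt5, Krt4 and Krt78 in the type II cluster; on mutant 3, Krt15 lies at its mean and Krt16 below it.

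Other genes of stratified epithelium were set beside the keratins from lists written without reference to their levels on these arrays, though with earlier results of the data known. Among 11 of 25 cornified envelope genes above the filter, 5 had wildtype 2, mutant 1 and mutant 3 highest (8.83% of all genes). Krtdap, a keratinocyte differentiation protein, read 3.65, 9.75 and 3.65 in wildtype and 8.37, 4.60 and 6.94 in mutant. Sprr1a, a small proline-rich precursor of the cornified envelope, read 5.19, 9.37 and 5.33 in wildtype and 8.57, 3.71 and 7.49 in mutant. Both shared the 3 highest arrays of the mucosal keratins, but Krtdap was at the floor on wildtype 1 and wildtype 3 and not on mutant 2. Lor (loricrin) and Rptn (repetin), late envelope proteins, reached 9.08 and 9.33 on wildtype 2 and at most 5.57 and 5.88 on the other 5 arrays, so that wildtype 2 stood apart, as it did for Krt1. Ivl (involucrin) and Tgm3 did not follow: they were highest on wildtype 3 (8.10 and 7.74) and mutant 3 (7.98 and 7.44). The summed intensity of the 24 envelope genes measured ran from 656 to 6386 in wildtype and from 1092 to 2035 in mutant, and no member was at 0 on all arrays. Their part in the keratin levels was not tested.

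A minority of the structural partners of keratins shared the order, which 8.83% of all genes had. Of the desmosome genes, which anchor keratin filaments between cells, 10 of 14 were above the filter and 2 had the order of arrays seen in the keratins. Pkp1, a desmosomal plaque protein of stratified epithelium, was one, at 7.86, 9.24 and 6.07 in wildtype and 8.96, 7.80 and 8.27 in mutant. Jup, present in many cell types, was highest on wildtype 3 (10.61). Of the hemidesmosome genes, which anchor basal cells to the basement membrane, 6 of 9 were above the filter and 2, Plec and Col17a1, had the order. Lama3 had the widest range of both lists, from 3.65 on mutant 1 to 8.20 on wildtype 3. Col17a1 read 6.59, 7.38 and 6.16 in wildtype and 7.30, 6.21 and 6.93 in mutant, with the 3 highest arrays of Krt5 and a smaller range. Trp63, the transcription factor that maintains basal cells, did not vary with Krt5: it read 10.88, 10.84 and 9.67 in wildtype and 10.95, 11.09 and 10.85 in mutant, with a difference of 0.50 (SE 0.311; limma, adjusted p = 1). Mutant 2 read lowest for Krt5 and highest for Trp63, but these ranks rest on small differences. Krt5 was nearly level on mutant 2, wildtype 1 and wildtype 3 (8.82, 8.83 and 8.86). Trp63 was nearly level on all arrays but wildtype 3. Of the other regulators of squamous fate, 9 of 12 with Trp63 were above the filter and 1, Klf5, had the keratin order, from 4.79 on mutant 2 to 7.89 on mutant 1. Klf4, a factor of the epidermal barrier, was highest on mutant 2 (9.92) and lowest on wildtype 1 (8.05).

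Genes of the other cell types gave medians without the keratin order, except for the hair follicle list, of whose 4 genes above the filter 0 had it. The 10 mature olfactory neuron genes above the filter, led in range by the channel subunits Cnga4 and Cnga2, had median deviations of 0.73, 0.32 and 0.41 in wildtype and -0.60, -0.44 and -0.25 in mutant. The 9 supporting and gland cell genes had 0.45, 0.02 and -0.55 in wildtype and 0.16, 0.27 and 0.01 in mutant. Their median was lowest on wildtype 3, as the median of the simple keratin class was. The 8 simple epithelium genes had 0.15, 0.20 and -0.34 in wildtype and 0.20, -0.10 and 0.04 in mutant. Of these 8, 3 had the keratin order (8.83% of all genes). Of these 3, Cldn7, a tight junction protein, ran from 9.96 on wildtype 3 to 11.15 on mutant 1. Epcam, an epithelial adhesion protein without the order, ran from 10.45 on wildtype 3 to 11.42 on mutant 2. The 9 multiciliated cell genes lay between -0.18 and 0.23. Of the hair follicle genes 4 of 10 were above the filter, and they did not move together. Krtap3-1, a hair keratin-associated protein, and Foxq1 were highest on wildtype 3 (9.10 and 9.73) and mutant 3 (8.61 and 8.76), as Krt33a was. Tchh (trichohyalin) was lowest on wildtype 3, at the floor, and Gata3 was highest on mutant 2 (7.93) and at the floor on wildtype 1, wildtype 3 and mutant 3. Limma called 0 genes of any of these lists over all genes tested, and at an unadjusted p under 0.05 there were 6 of the 10 neuron genes and 0 of the others (0.598% of all genes).

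Outside the keratins, the 8 genes whose levels were most like each class over the 6 arrays were found by Pearson's r with the class mean deviation, as a description of 6 arrays that share their general differences. For the basal class these were Ltbr, Capg, Slc39a6, Polr2a, Igfbpl1, Sec16a, B4galt1 and Calml3, with r from 0.979 to 0.992. Calml3, a calmodulin-like protein of stratified epithelium, read 4.57, 7.13 and 3.65 in wildtype and 7.53, 3.65 and 5.92 in mutant, the widest range of the 8. For the cornified class they were Coq2, Timm8a1, Cd151, Foxp4, Atp6v1b2, Ttyh3, Nme2 and Psmc1, with r from 0.981 to 0.995. The tetraspanin Cd151, a partner of laminin-binding integrins in hemidesmosomes, had the largest range of these at 1.71. For the simple class they were Dlk1, Csrp2, Ccdc163, Fam214b, Ccdc81, Ctc1, Dand5 and Lrrc45, with r from 0.973 to 0.995, and here Krt20, with the widest range of the class, weighed most in the class mean.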

How the data were processed

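The deposited table holds 1 linear intensity per probe set and array, and the sources used here do not say how the authors made it. Per the labels, total RNA was amplified into biotin-labelled cDNA. In all 45037 probe sets were read, 5.39% of values being 0. Because array quartiles differed by up to 0.67 on the log2 scale, arrays were quantile normalized, floored at the 20th percentile (12.56) and put on the log2 scale. Genes whose mean fell in the lowest 40% over probe sets of 1 gene were left out, leaving 12703 for limma 3.58.1 in R 4.3.3 (trended eBayes, two-sided, Benjamini-Hochberg over all genes, threshold 0.05). The code was run on simulated data with a single spread for all genes, below the median within-group SD here. That run cannot show what limma would find among genes as variable as these keratins. The number of arrays limits precision, and p-values measure the spread between 3 pups per genotype.

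Members, classes and lists were chosen with earlier results of these data known. Per-array values are given for fixed basal, simple, cornified, mucosal and stress keratins, for the 3 keratins with the largest difference in each direction, and for up to 4 genes of a list by range. Genes such as Ivl, Tgm3, Col17a1, Epcam, Gnal, Stoml3 and Omp, and hair and other keratins, were chosen after their values were seen. Replicate numbers come from the labels. Between same-numbered arrays the deviations from group means had correlations of 0.47, 0.18 and 0.56, all over 0.1, so the numbers were taken as pairs, run as an alternative; wildtype 2 correlated more with mutant 1 (0.22) than with mutant 2. For names, 1 probe set shared by Krt17 and Krt14 was left out. Alternatives changed the filter, normalization, floor, variance model, probe set choice and arrays used.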

Additional observations from a re-analysis of the deposited data

How the results depend on the processing

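The count of 0 keratins called by limma held under every alternative run. The replicate block changed no call: it gave 0 keratins called, 0 at an unadjusted p under 0.05 and 1 whose groups did not overlap. The count at an unadjusted p under 0.05 became 1 with limma array weights and 1 without both arrays numbered 3, and ran from 0 to 2 with 1 array left out (2 without mutant 2). Keratins whose groups did not overlap became 0 with arrays scaled to equal medians and 2 without both arrays numbered 3, and ran from 1 to 3 with 1 array left out (3 without mutant 2). The count of 14 keratins highest on wildtype 2, mutant 1 and mutant 3 became 8 with equal medians and 8 with values as deposited; these settings were run for this count after seeing the data. With 1 array left out, the cornified median ran from -1.09 to 0.96. Apart from genes called under the replicate block, counts over all genes were not repeated for these alternatives. The keratin counts here therefore have no such share beside them.

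Uncalled differences changed sign as follows. Krt4 became 0.11 with the floor at the 30th percentile, 0.22 with array weights and 0.23 with the mean over probe sets. Krt8 became -0.017 with array weights and -0.065 with the mean over probe sets, and Krt222 became 0.23 with array weights. Without both arrays numbered 3, Krt5 was -0.030, Krt14 -0.44, Krt7 -0.16, Krt8 -0.26, Krt18 -0.048, Krt13 -0.32, Krt6a -0.61, Krt17 -0.17 and Krt222 0.037. With 1 array left out, Krt1 ran from -1.83 to 1.10, Krt4 from -1.0004 to 1.58, Krt5 from -0.041 to 0.98, Krt7 from -0.078 to 0.78, Krt8 from -0.15 to 0.23, Krt13 from -0.38 to 2.36, Krt14 from -0.32 to 0.84, Krt18 from -0.0051 to 0.31 and Krt222 from -1.37 to 0.56. Krt19 kept its sign but ran from 0.048 to 0.51. The cause was not tested. Signal near background limits the hair keratins, many of which lay at the floor.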
